A study of Homo sapiens with 9 samples.

Results

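Heat shock proteins are chaperones that hold, refold or hand over unfolded proteins, and HSF1 is the transcription factor that drives their induction after heat or other proteotoxic stress. The genes described here are HSF1 and 9 chaperone or co-chaperone genes: HSPA1A, HSPA1B, HSPA8, HSPH1, HSP90AA1, HSPB1, DNAJB1, HSPD1 and BAG3. They were chosen by gene name, with earlier results of these data known. All 10 were found among the 27111 genes of the count tables. Their levels were compared in PC-3 cells, a human prostate cancer line derived from a bone metastasis, grown as multicellular tumor spheroids (MTSs) in medium with Matrigel. The cells carried an empty pSIN lentiviral vector (Empty) or the same vector expressing the long (NF-YAl) or the short (NF-YAs) splice variant of NF-YA, the DNA-binding subunit of the CCAAT-binding factor NF-Y. All lines were transduced and selected with puromycin, the introduced NF-YA was of murine sequence, and 3 RNA-seq libraries were made of each line, so that isoform and transduced line cannot be told apart.

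In the HSP70 cycle, a J-domain protein such as DNAJB1 delivers the client and stimulates ATP hydrolysis, the HSP70 (HSPA1A, HSPA1B, HSPA8) holds it, and nucleotide exchange factors such as HSPH1 and BAG3 trigger its release. HSP90AA1 matures signalling proteins and nuclear receptors, HSPB1 is an ATP-independent small chaperone, and HSPD1 folds proteins in the mitochondrial matrix. HSF1 binds heat shock elements, inverted repeats of GAA triplets, in the promoters of inducible genes, and the CCAAT box bound by NF-Y is a classical element of HSP70 promoters.

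The promoter windows of 4 genes are shown because HSPA1A, HSPA1B and BAG3 changed most among the 10 genes in NF-YAs MTSs, whereas HSPA8 is the constitutive HSP70 of the same family. The sequences are RefSeq windows of assembly GRCh38.p14, with 250 bases before and 50 after the annotated start site, written in the direction of transcription. Capitals mark CCAAT or ATTGG, the CCAAT box on either strand, and GAANNTTC or TTCNNGAA, the core of a heat shock element, whose matches may overlap. The windows lie at chr6:31815293-31815592 on the plus strand (HSPA1A), chr6:31827488-31827787 on the plus strand (HSPA1B), chr11:123062087-123062386 on the minus strand (HSPA8) and chr10:119651130-119651429 on the plus strand (BAG3).
HSPA1A: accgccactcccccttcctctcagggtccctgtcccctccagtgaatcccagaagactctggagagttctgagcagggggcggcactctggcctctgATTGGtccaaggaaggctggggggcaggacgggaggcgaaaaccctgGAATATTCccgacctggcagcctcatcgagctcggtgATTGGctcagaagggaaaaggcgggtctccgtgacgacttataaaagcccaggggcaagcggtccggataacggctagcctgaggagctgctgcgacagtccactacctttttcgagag
HSPA1B: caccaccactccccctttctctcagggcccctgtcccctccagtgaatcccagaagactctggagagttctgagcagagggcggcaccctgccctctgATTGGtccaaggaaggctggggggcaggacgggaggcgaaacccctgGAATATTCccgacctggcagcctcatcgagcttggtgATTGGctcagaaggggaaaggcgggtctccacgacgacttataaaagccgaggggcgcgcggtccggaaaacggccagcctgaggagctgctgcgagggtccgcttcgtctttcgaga
HSPA8: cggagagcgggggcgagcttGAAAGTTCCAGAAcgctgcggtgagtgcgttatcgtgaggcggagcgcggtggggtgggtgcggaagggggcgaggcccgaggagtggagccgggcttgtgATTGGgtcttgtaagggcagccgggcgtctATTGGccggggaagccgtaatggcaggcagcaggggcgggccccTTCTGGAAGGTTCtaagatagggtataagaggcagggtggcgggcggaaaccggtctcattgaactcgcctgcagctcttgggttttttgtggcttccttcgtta
BAG3: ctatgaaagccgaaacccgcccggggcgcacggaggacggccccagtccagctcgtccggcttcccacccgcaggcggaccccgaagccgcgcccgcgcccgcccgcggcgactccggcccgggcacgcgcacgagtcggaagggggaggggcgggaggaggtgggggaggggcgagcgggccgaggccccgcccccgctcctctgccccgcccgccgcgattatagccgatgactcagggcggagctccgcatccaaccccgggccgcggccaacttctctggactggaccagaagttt

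The HSPA1A and HSPA1B windows were identical at 277 of 301 aligned positions (92.0%). Both held 2 CCAAT boxes, 1 heat shock element core between them and a TATAAA box. In HSPA1A the CCAAT boxes began at positions -153 and -69 from the start site and the heat shock element core at -106, and in HSPA1B each lay 1 base closer to the start. The HSPA8 window held 2 CCAAT boxes, at -129 and -99, and 4 heat shock element cores in 2 overlapping pairs. The BAG3 and HSPH1 windows and window 1 of HSPD1 held neither motif, which says only that these letters are not in the windows. Of 35116 RefSeq promoter windows of this length, 34.6% held at least 1 CCAAT box and 10.8% held 2 or more, 13.5% held a heat shock element core and 1.71% held 2 or more, and 7.33% held TATAAA. The letters are a description and not evidence of binding.

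Total expected counts were 25033571 to 27163976 in the Empty libraries, 18092007 to 23985635 in NF-YAl and 18076979 to 21533481 in NF-YAs, and the 10 genes took 0.322 to 0.449% of them. The epithelial keratins KRT8, KRT18 and KRT19 were expressed in all libraries (70.4 to 569 TPM, the unit scaled to transcript length and library total), as was VIM, and KLK3 was listed at 0. Of immune and endothelial markers, PTPRC, CD3E and CD14 did not exceed 0.93 TPM and PECAM1, VWF and CDH5 did not exceed 2.74 TPM. NFYA itself was at 91.8 ± 4.24 CPM (counts scaled to library size with TMM factors; SD, n = 3) in Empty MTSs, 341 ± 49.3 in NF-YAl and 261 ± 5.71 in NF-YAs libraries, and reads of the murine transgene cannot be told from the human gene. NF-YAl replicate D stood apart in TPM: genes under 300 bases took 15.9% of its TPM against 34.5 to 47.8% in the other libraries, and the TPM of the 10 genes summed to 3422 against 1572 to 2309. CPM are therefore used for differences between libraries, and TPM for the order of genes within a library. In counts NF-YAl replicate D also stood apart. The chi-square of its counts per gene was 92.5 against NF-YAl A and 75.4 against B, beside 30.8 between A and B. Comparisons on CPM are thus not free of this difference. The libraries are bulk RNA, so fewer cells with a transcript and less of it per cell cannot be told apart.

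On the TPM scale, which divides by length, the order in Empty MTSs ran from HSPA8 (534 ± 68.9 TPM) and HSP90AA1 (382 ± 73.4) through HSPD1 (234 ± 51.0), HSPA1A (189 ± 11.7), HSPA1B (172 ± 10.3), DNAJB1 (120 ± 16.4) and HSPB1 (90.5 ± 12.2) to HSF1 (52.2 ± 6.60), BAG3 (42.6 ± 9.48) and HSPH1 (34.2 ± 4.83; SD, n = 3). The ranges over libraries overlapped for the neighbours HSPD1 and HSPA1A, HSPA1A and HSPA1B, HSF1 and BAG3, and BAG3 and HSPH1. In NF-YAs MTSs HSPB1 stood in place 4 (146 ± 13.1 TPM) and BAG3 in place 6 (101 ± 10.97), above HSPA1A (89.1 ± 16.8) and HSPA1B (75.01 ± 12.2) in places 7 and 8, although the ranges of BAG3 and HSPA1A overlapped. In every NF-YAl pair of neighbours the ranges overlapped, with replicate D the highest NF-YAl library for all 10 genes.

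**Figure D1:**
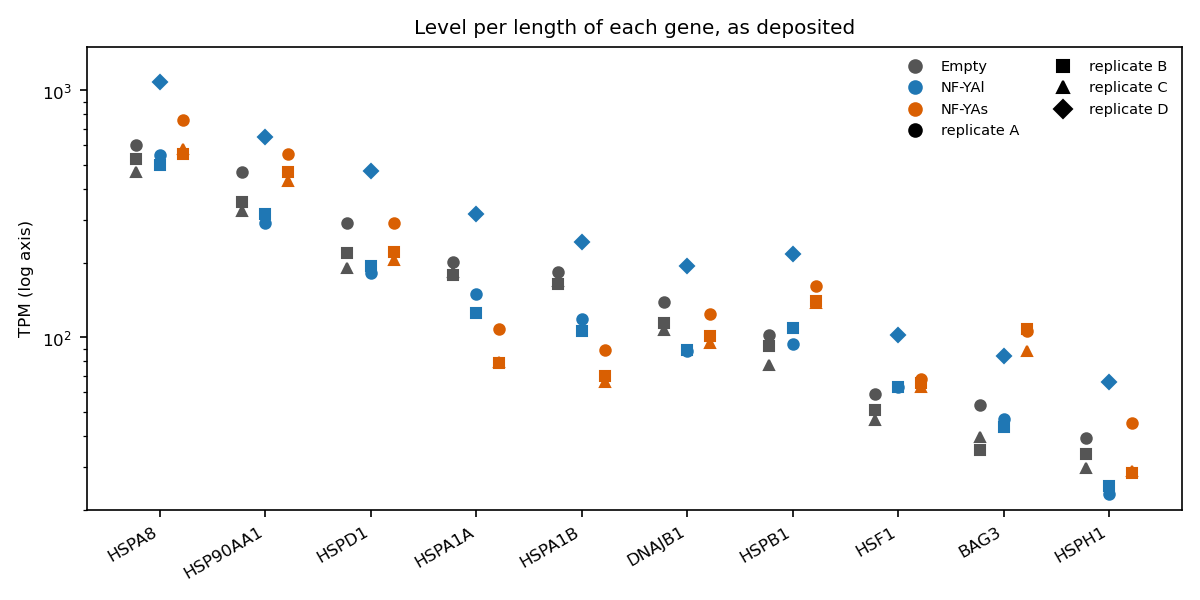
TPM of each gene in each library on a log axis, genes ordered by their mean in Empty; colours mark the line and symbols the replicate. NF-YAl replicate D lies above the other NF-YAl libraries for every gene, and BAG3 and the HSPA1 genes meet in NF-YAs MTSs.

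The comparison of each isoform with the empty vector asks which heat shock genes differed when NF-YAl or NF-YAs was over-expressed, and the comparison of the isoforms asks which differed between them. A gene is said to have risen or fallen at an adjusted p under 0.01 (edgeR's quasi-likelihood test, Benjamini-Hochberg over the 17108 genes tested), and is called a differentially expressed gene (DEG) when its absolute log2 fold change was also above 1. All 10 genes passed the filter on low counts. Both comparisons with Empty share its 3 libraries.

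In NF-YAs MTSs the stress-inducible HSP70 genes HSPA1A and HSPA1B fell to 0.415 and 0.382 of their Empty level, while BAG3 rose 2.12-fold and HSPB1 1.42-fold. The other 6 genes did not pass the test. Thus 2 of 10 genes rose, against 12.1% of all genes tested, and 2 fell, against 10.5%. The 2 that fell, HSPA1A and HSPA1B, share much of their transcript sequence and are not independent measures. As DEGs, 1 was up-regulated (5.44% of all genes) and 2 were down-regulated (3.90%). The median log2 fold change of the 10 genes was -0.03, beside 0.00 over all genes, with a range from -1.39 to 1.08.

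In NF-YAl MTSs HSPA1B fell to 0.687 of its Empty level, and the other 9 genes did not pass the test. None of the 10 rose, against 10% of all genes, and 1 fell, against 9.54%. At an unadjusted p under 0.05 edgeR gave 1 gene higher (HSF1) and 3 lower. DESeq2 called 0 that rose, beside 2106 of 17108 over all genes. For an unadjusted p under 0.05 no share of all genes is given, here or below, so those counts are a description only. None was a DEG in either direction, against 4.76% up and 3.50% down over all genes. The median log2 fold change was -0.18, beside 0.01 over all genes.

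Between the isoforms, HSPA1A and HSPA1B were higher in NF-YAl than in NF-YAs and BAG3 was lower. That is 2 genes higher, against 4.70% of all genes, and 1 lower, against 6.25%, where the 2 higher genes are again the HSPA1 pair with shared sequence. None had an absolute log2 fold change above 1, against 1.74% higher and 2.86% lower over all genes. The median log2 fold change was -0.02, beside 0.02 over all genes.

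**Figure D2:**
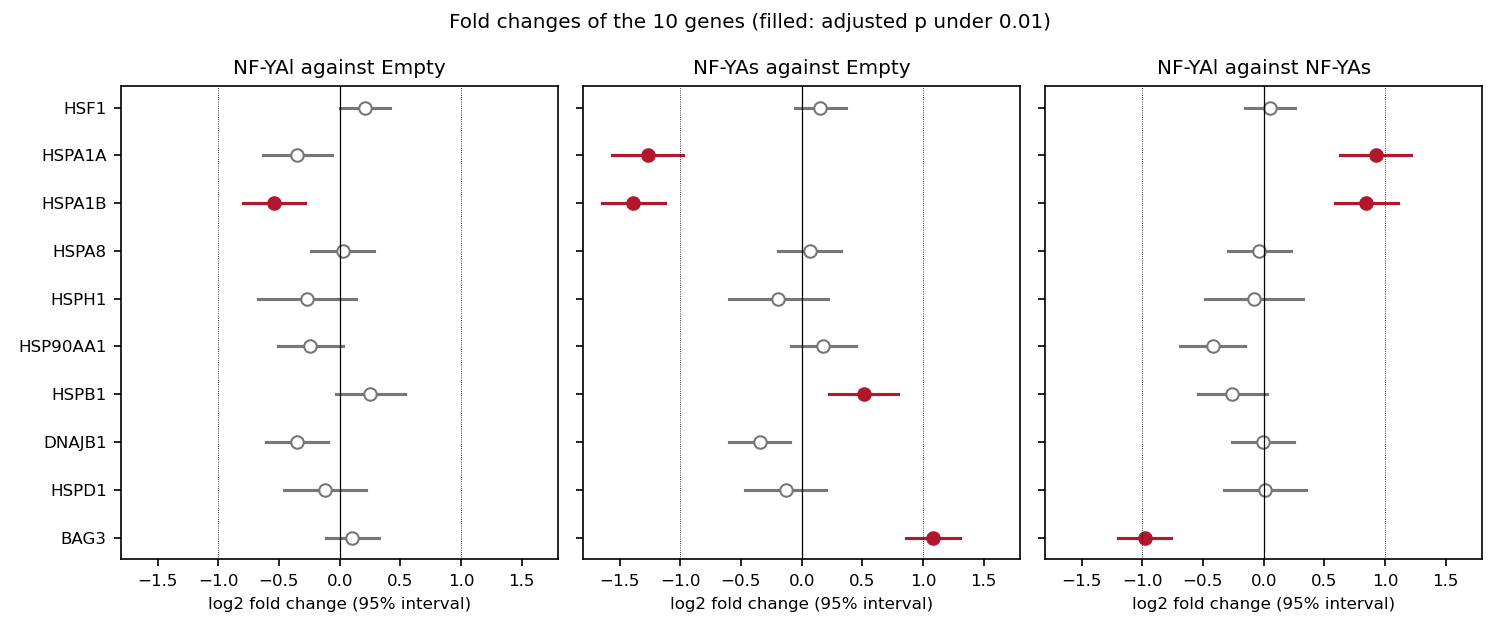
Log2 fold changes of the 10 genes with 95% intervals in the 3 comparisons; filled red points have an adjusted p under 0.01 and dotted lines mark log2 fold changes of -1 and 1. HSPA1A and HSPA1B lie at -1.27 and -1.39 and BAG3 at 1.08 in NF-YAs against Empty, and most other intervals include 0.

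HSPA1A and HSPA1B encode the major heat-inducible cytosolic HSP70. They lie close together on chromosome 6 (GRCh37: 31783320 to 31785723 and 31795515 to 31798031, both on the plus strand). HSPA1A was at 343, 398 and 417 CPM in the Empty libraries A, B and C, at 276, 271 and 363 CPM in NF-YAl A, B and D, and at 178, 146 and 156 CPM in NF-YAs A, B and C. The NF-YAs libraries lay below all others, and NF-YAl D lay within the range of Empty. In NF-YAs the log2 fold change against Empty was -1.27 (SE 0.134, adjusted p = 2.46e-05), and NF-YAl exceeded NF-YAs by 0.92 (SE 0.133, adjusted p = 0.000595). In NF-YAl against Empty it was -0.35 (SE 0.132, 95% interval -0.63 to -0.06), which did not pass the test (adjusted p = 0.0622). Without NF-YAl D this value was -0.50 and passed (adjusted p = 0.00399).

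HSPA1B was at 324, 377 and 398 CPM in Empty A, B and C, at 227, 238 and 291 CPM in NF-YAl A, B and D, and at 152, 134 and 135 CPM in NF-YAs A, B and C. The 3 lines did not overlap, with NF-YAl between Empty and NF-YAs. HSPA1B fell in NF-YAs by 1.39 on the log2 scale (SE 0.120, adjusted p = 6.53e-06) and in NF-YAl by 0.54 (SE 0.118, adjusted p = 0.00420), and it was higher in NF-YAl than in NF-YAs by 0.85 (SE 0.119, adjusted p = 0.000519). The fall in NF-YAl did not pass without Empty B (-0.52, adjusted p = 0.0193), without Empty C (-0.48, adjusted p = 0.0261) or without NF-YAl B (-0.50, adjusted p = 0.0206), nor when only the NF-YAl and Empty libraries were fitted (-0.54, adjusted p = 0.0163) or on unscaled TPM (-0.24, adjusted p = 0.659, limma on log2(TPM + 1)).

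Reads of the HSPA1 genes are hard to assign, since 73.8% of the 75-base windows of the HSPA1A transcript also occur in HSPA1B. RSEM put 51.2 to 55.5% of the reads of the pair on HSPA1A in every library. The sum of both genes, which does not depend on this split, was 752 ± 76.3 CPM in Empty MTSs, 555 ± 85.6 in NF-YAl and 300.1 ± 26.9 in NF-YAs libraries (SD, n = 3). It fell in NF-YAs (log2 fold change -1.33, SE 0.129, adjusted p = 1.42e-05) and was higher in NF-YAl than in NF-YAs (0.89, SE 0.128, adjusted p = 0.000604). In NF-YAl against Empty the sum gave -0.44 (SE 0.127, adjusted p = 0.0198), which did not pass the test, although all 3 libraries lay below Empty. On unscaled TPM, where the median of all genes moved by 0.15, the falls in NF-YAs had the same direction but did not pass (HSPA1A -1.09, adjusted p = 0.0254, and HSPA1B -1.20, adjusted p = 0.0101, limma). Nor did the differences between the isoforms on that scale (1.03, adjusted p = 0.0606, and 0.96, adjusted p = 0.0778). All of these passed once TPM were rescaled by TMM.

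HSPA8, the constitutive HSP70 that serves folding and clathrin uncoating in unstressed cells, was at 1039, 1190 and 1069 CPM in Empty MTSs, 1013, 1090 and 1258 CPM in NF-YAl and 1269, 1029 and 1152 CPM in NF-YAs libraries. The 3 lines overlapped. Its log2 fold change was 0.07 in NF-YAs (95% interval -0.19 to 0.32, adjusted p = 0.710) and 0.03 in NF-YAl (-0.23 to 0.29, adjusted p = 0.892). These intervals bound a change of HSPA8 in NF-YAs between 0.874-fold and 1.25-fold, whereas those of HSPA1A ran from 0.339 to 0.507. HSPA8 introns hold snoRNA genes on the same strand.

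DNAJB1, the J-domain protein induced together with HSP70, was at 232, 249 and 238 CPM in Empty MTSs, 157, 187 and 220 CPM in NF-YAl and 199, 185 and 182 CPM in NF-YAs libraries. All 6 libraries of the isoform lines lay below all Empty libraries. The log2 fold changes were -0.35 in both lines (SE 0.116, adjusted p = 0.0358), which did not pass the test. DNAJB1 passed without NF-YAl D in both comparisons (NF-YAl -0.48, adjusted p = 0.00212, and NF-YAs -0.35, adjusted p = 0.00633), and in NF-YAs also without NF-YAl A (-0.34, adjusted p = 0.00632) and when only the NF-YAs and Empty libraries were fitted (adjusted p = 0.00114). HSPH1, the HSP110 exchange factor of HSP70, spread widely, from 97.0 to 173 CPM in NF-YAl and from 119 to 169 CPM in NF-YAs, beside 152 to 170 CPM in Empty. Its log2 fold changes of -0.27 in NF-YAl (95% interval -0.68 to 0.13) and -0.19 in NF-YAs (-0.60 to 0.21) did not pass the test.

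BAG3 is a co-chaperone that links HSP70 to small heat shock proteins and to the autophagic removal of clients, and it is itself heat-inducible. It was at 96.0, 82.5 and 94.7 CPM in Empty A, B and C, at 91.1, 99.5 and 103 CPM in NF-YAl A, B and D, and at 185, 211 and 183 CPM in NF-YAs A, B and C. The NF-YAs libraries lay above all others, while Empty and NF-YAl overlapped. BAG3 rose in NF-YAs by a log2 fold change of 1.08 (SE 0.101, 95% interval 0.86 to 1.302, adjusted p = 1.02e-05), and NF-YAl was below NF-YAs (-0.98, SE 0.1005, adjusted p = 6.11e-05). In NF-YAl against Empty it was 0.10 (95% interval -0.11 to 0.32, adjusted p = 0.472). On unscaled TPM the rise in NF-YAs passed, and the difference between the isoforms did not (-0.84, adjusted p = 0.113, limma). BAG3 lies on chromosome 10 (GRCh37: 121410892 to 121437331, plus strand) and no annotated gene overlaps it.

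Since BAG3 and the HSPA1 genes moved in opposite directions in NF-YAs MTSs, their ratio separated the lines. The CPM of BAG3 divided by the summed CPM of HSPA1A and HSPA1B ran from 0.106 to 0.144 in Empty MTSs, from 0.157 to 0.196 in NF-YAl MTSs and from 0.560 to 0.755 in NF-YAs. This ratio was chosen after the values were seen and is given without a test.

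HSPB1 (HSP27), a small heat shock protein that keeps unfolded clients soluble and acts on actin, was at 56.5, 66.3 and 57.6 CPM in Empty MTSs, 56.2, 75.9 and 82.7 CPM in NF-YAl and 85.6, 83.7 and 87.7 CPM in NF-YAs libraries. The NF-YAs libraries lay above all others, and NF-YAl A lay below every Empty library. HSPB1 rose in NF-YAs by 0.51 (SE 0.131, adjusted p = 0.00920). This call was close to the threshold and did not pass without any 1 of 7 libraries, Empty A, B or C, NF-YAl B, or NF-YAs A, B or C (log2 fold change 0.47 to 0.59, adjusted p = 0.0134 to 0.0446). Nor did it pass with limma on TPM (0.69, adjusted p = 0.173) or on TPM rescaled by TMM (0.51, adjusted p = 0.0111). In NF-YAl HSPB1 was at 0.25 (95% interval -0.03 to 0.54, adjusted p = 0.163), and without NF-YAl A it passed the test (0.40, adjusted p = 0.00741).

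HSP90AA1, the inducible cytosolic HSP90, was at 1116, 1111 and 1042 CPM in Empty MTSs, 755, 957 and 1055 CPM in NF-YAl and 1290, 1218 and 1193 CPM in NF-YAs libraries. The NF-YAs libraries lay above all others, but by little: the log2 fold change was 0.18 (95% interval -0.09 to 0.45, adjusted p = 0.282) against Empty. NF-YAl lay below NF-YAs (log2 fold change -0.42, SE 0.123, adjusted p = 0.0283), which did not pass with edgeR and passed with DESeq2 (adjusted p = 0.00515) and without NF-YAl D (-0.53, adjusted p = 0.00536). HSPD1, the mitochondrial HSP60, was at 468, 465 and 410 CPM in Empty MTSs, 317, 399 and 520 CPM in NF-YAl and 456, 388 and 382 CPM in NF-YAs libraries. The lines overlapped, and its log2 fold changes were -0.12 in NF-YAl (95% interval -0.46 to 0.22) and -0.13 in NF-YAs (-0.47 to 0.20). HSP90AA1 overlaps WDR20, and HSPD1 overlaps HSPE1 and MOB4, on the opposite strand. The libraries were stranded, but whether the counting used strand is not given in the sources used here.

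HSF1 was at 89.3, 100.3 and 92.7 CPM in Empty A, B and C, at 102, 119.7 and 104 CPM in NF-YAl A, B and D, and at 98.9, 106 and 109 CPM in NF-YAs A, B and C. All NF-YAl libraries lay above Empty, while NF-YAs overlapped Empty. The log2 fold change was 0.21 in NF-YAl (95% interval 0.00 to 0.42, adjusted p = 0.117) and 0.16 in NF-YAs (-0.05 to 0.36, adjusted p = 0.232), neither past the test, and the lines differed from each other by 0.05 (-0.15 to 0.26). As folds, the upper bounds of these intervals were 1.34 in NF-YAl and 1.29 in NF-YAs. HSF1 activity, which depends on trimerization and phosphorylation of the protein, was not measured. HSF1 overlaps DGAT1, and DNAJB1 overlaps TECR, on the opposite strand.

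**Figure D3:**
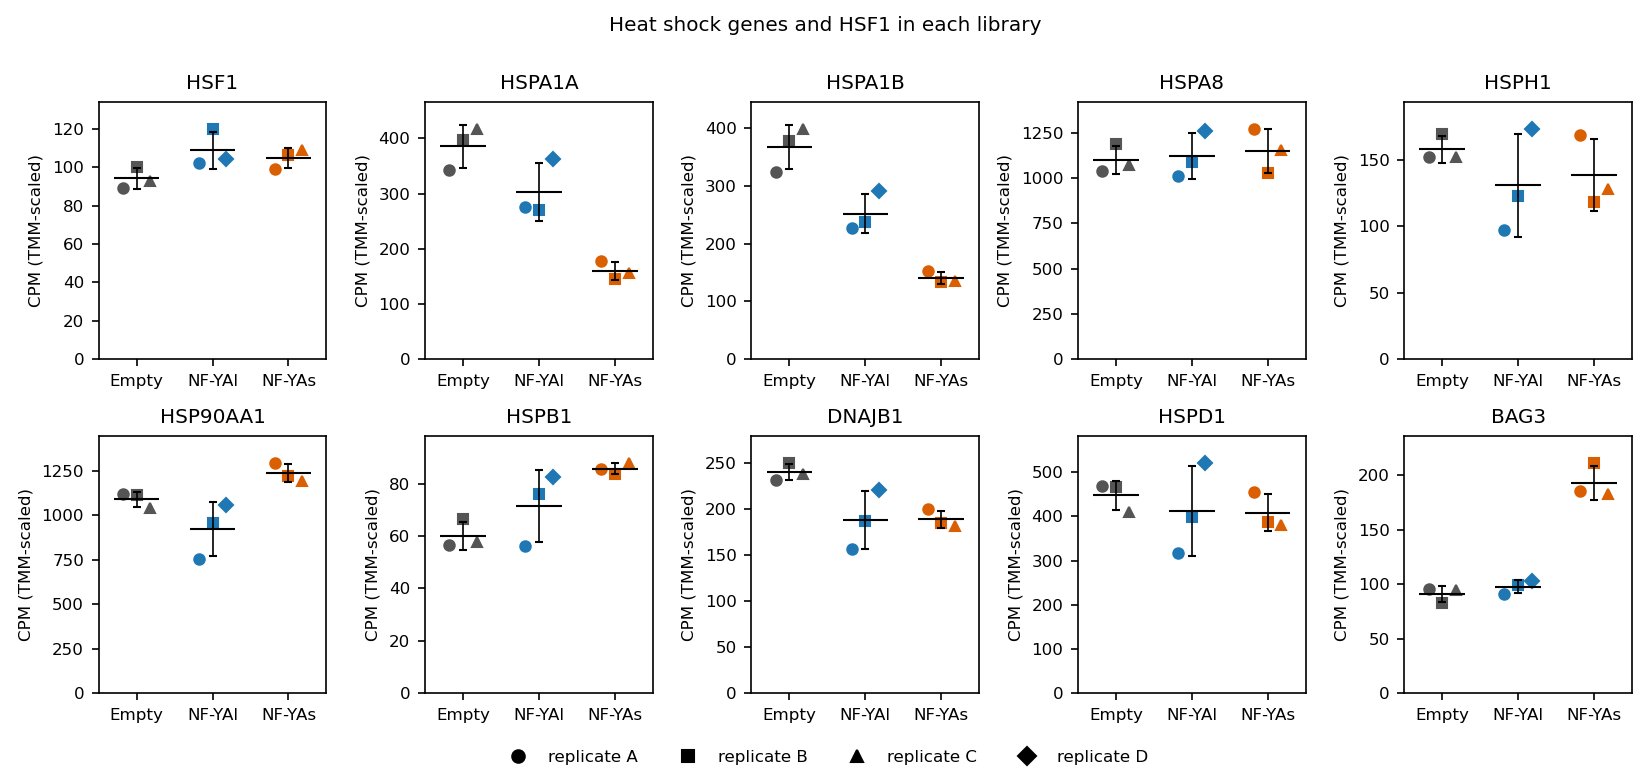
TMM-scaled CPM of the 10 genes in each library, with the line mean (horizontal bar) and SD (error bar, n = 3); symbols give the replicate letter. HSPA1A and HSPA1B are lowest and BAG3 highest in the 3 NF-YAs libraries, and NF-YAl replicate D is the highest NF-YAl library for 9 of the genes.

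Among 88 other chaperone, co-chaperone, heat shock factor and heat-inducible genes, 81 passed the filter on low counts. In NF-YAs 6 rose and 6 fell (7.41% each), beside 12.1% and 10.5% of all genes. In NF-YAl 3 rose (3.70%) and 7 fell (8.64%), beside 10% and 9.54%. Between the isoforms 2 were higher in NF-YAl (2.47%) and 3 lower (3.70%), beside 4.70% and 6.25%. These edgeR shares lie below those of all genes, though the share that fell in NF-YAl lies close (8.64% beside 9.54%). Whether the lists differ from all genes was not tested. DESeq2 called 6 of the 81 that rose and 11 that fell in NF-YAl, beside 2106 and 2062 of 17108 genes. It called 10 and 10 in NF-YAs, beside 2488 and 2188, and 5 and 5 between the isoforms, beside 1285 and 1586. The DESeq2 share of list genes that fell in NF-YAl lay above that of all genes, and the other DESeq2 shares lay below. On unscaled TPM the calls of HSPA6, HSPA7 and HSPB8 given here passed, and those of the other named list genes of at least 5 CPM did not (limma on log2(TPM + 1), adjusted p = 0.0557 for DNAJB11 to 0.805 for HSPA4). The median log2 fold changes of the 81 genes were -0.02 in NF-YAl and -0.01 in NF-YAs.

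Of 13 other HSP70 and HSP110 genes, 2 rose and 2 fell in NF-YAs. Those that fell were HSPA6, a strictly heat-inducible HSP70, and its neighbouring pseudogene HSPA7, between which reads may be shared. HSPA6 was at 21.2, 23.2 and 31.7 CPM in Empty MTSs, 21.5, 17.1 and 15.0 CPM in NF-YAl and 8.35, 8.36 and 7.14 CPM in NF-YAs libraries. The NF-YAs libraries lay below all others, as they did for HSPA1A and HSPA1B. The log2 fold change of HSPA6 was -1.68 in NF-YAs (SE 0.182, adjusted p = 2.96e-05), and -0.51 in NF-YAl, which did not pass (adjusted p = 0.0400). HSPA7 was at -1.53 in NF-YAs (adjusted p = 2.13e-05) and at -0.18 in NF-YAl (adjusted p = 0.389).

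The 2 that rose in NF-YAs were HSPA12A, a distant HSP70 relative (10.8 ± 1.299 to 17.1 ± 2.02 CPM, log2 fold change 0.66, adjusted p = 0.00440), and HSPA14, a ribosome-associated HSP70 (22.7 ± 0.624 to 36.8 ± 1.83 CPM, 0.70, adjusted p = 0.000212). The HSPA12A call was lost without Empty B, Empty C, NF-YAs A or NF-YAs B (log2 fold change 0.56 to 0.69, adjusted p = 0.0143 to 0.0246). In NF-YAl HSPA2, the testis-enriched HSP70, fell from 17.9 ± 5.11 to 7.98 ± 1.27 CPM (-1.16, adjusted p = 0.000808). HSPA4, an HSP110 exchange factor, fell there by 0.44 (adjusted p = 0.00883), a call lost without any 1 of 8 libraries, all but NF-YAl D (log2 fold change -0.48 to -0.37, adjusted p = 0.0104 to 0.0453). HSPA1L, the third gene of the HSPA1 cluster, was at 2.47 ± 0.515 CPM in Empty and 1.31 ± 0.306 in NF-YAs (-0.92, adjusted p = 0.0169, not past the test).

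Of the other small heat shock proteins, 3 of 9 could be tested, and HSPB8, the partner of BAG3 in chaperone-assisted autophagy, rose in NF-YAs. It was at 1.34, 0.755 and 0.984 CPM in Empty MTSs, 0.318, 0.573 and 1.07 CPM in NF-YAl and 7.97, 6.67 and 9.31 CPM in NF-YAs libraries. All NF-YAs libraries lay above all others, with a log2 fold change of 2.96 against Empty (SE 0.321, adjusted p = 3.00e-05). The counts behind it were 134 to 202 in NF-YAs and 6 to 32 elsewhere. CRYAB, a small heat shock protein named after its values were seen because it was under 5 CPM, fell in both lines, from 1.58 ± 0.360 CPM to 0.614 ± 0.0839 in NF-YAl (-1.35, adjusted p = 0.00462) and 0.251 ± 0.0594 in NF-YAs (-2.64, adjusted p = 0.000123). Thus HSPB1, HSPB8 and CRYAB did not move in 1 direction in NF-YAs MTSs.

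**Figure D4:**
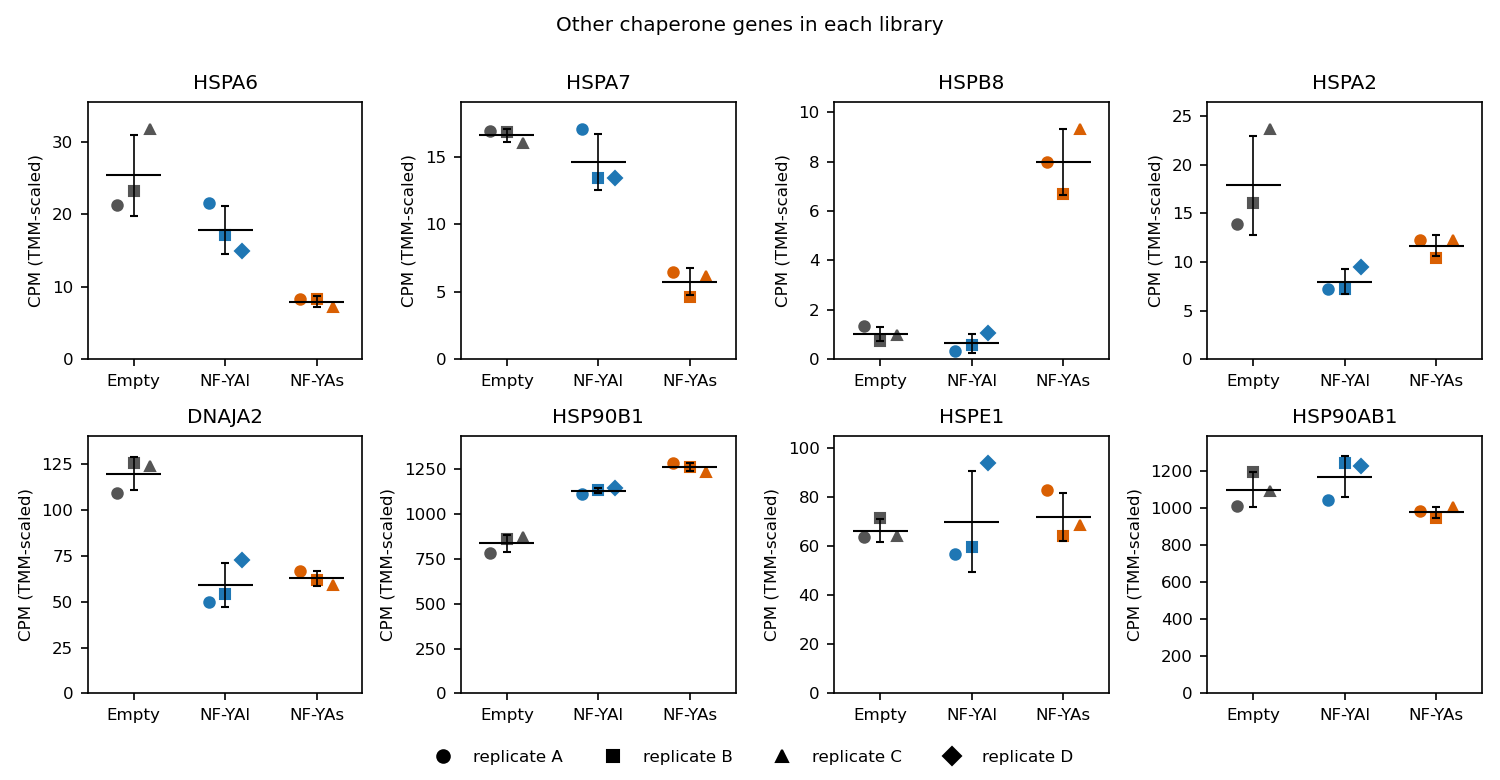
TMM-scaled CPM of 8 other chaperone genes, chosen with their values known, in each library, with mean and SD (n = 3). HSPA6 and HSPA7 are lowest and HSPB8 highest in NF-YAs, DNAJA2 is lower and HSP90B1 higher in both isoform lines than in Empty, and HSPE1 and HSP90AB1 did not pass the test.

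Of 20 other J-domain genes, 2 rose and 1 fell in NF-YAl, and 1 rose and 2 fell in NF-YAs. DNAJA2, a cytosolic partner of HSPA8, fell in both lines, from 120 ± 8.96 CPM to 59.0 ± 12.0 in NF-YAl (-1.02, adjusted p = 0.000124) and 62.7 ± 3.88 in NF-YAs (-0.93, adjusted p = 0.000197). DNAJC13, an endosomal J-domain protein, rose from 77.4 ± 2.39 CPM to 109 ± 1.55 in NF-YAl (0.49, adjusted p = 0.000867) and 102 ± 6.15 in NF-YAs (0.39, adjusted p = 0.00330). The NF-YAs call of DNAJC13 was lost without Empty A, Empty C or any 1 NF-YAs library (log2 fold change 0.35 to 0.43, adjusted p = 0.0103 to 0.0195). DNAJB11, a J-domain protein of the endoplasmic reticulum, rose in NF-YAl (0.56, adjusted p = 0.00143). DNAJC12 fell in NF-YAs (-0.91, adjusted p = 0.00161), a call lost without Empty C (-0.84, adjusted p = 0.0107).

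Of 3 other HSP90 genes, HSP90B1 (GRP94), the HSP90 of the endoplasmic reticulum, rose in both lines, from 838 ± 48.2 CPM to 1132 ± 16.4 in NF-YAl (0.43, adjusted p = 0.00374) and 1261 ± 23.5 in NF-YAs (0.59, adjusted p = 0.000432). The NF-YAl call of HSP90B1 was lost without any 1 Empty library or NF-YAl B (log2 fold change 0.40 to 0.46, adjusted p = 0.0120 to 0.0152). HSP90AB1, the constitutive counterpart of HSP90AA1, did not pass the test in NF-YAl (0.09, adjusted p = 0.572) or NF-YAs (-0.17, adjusted p = 0.244). Of 10 chaperonin genes, 0 rose in either line. At an unadjusted p under 0.05, 0 were higher in NF-YAl and 1 in NF-YAs, and DESeq2 called 0 in both. CCT6A, a subunit of the cytosolic CCT ring, fell in NF-YAl from 296 ± 10.8 to 202 ± 38.9 CPM (-0.55, adjusted p = 0.00477). That call was lost without any 1 Empty library or NF-YAl B (log2 fold change -0.57 to -0.51, adjusted p = 0.0134 to 0.0228). CCT6B, under 5 CPM and named after its values were seen, fell in NF-YAs from 2.01 ± 0.683 to 0.668 ± 0.183 CPM (-1.59, adjusted p = 0.00424). HSPE1, the co-chaperonin of HSPD1, was at 66.4 ± 4.48 CPM in Empty MTSs, 70.1 ± 20.6 in NF-YAl and 71.9 ± 9.82 in NF-YAs libraries, with neither difference past the test.

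Among 9 other BAG proteins and exchange factors, HSPBP1, an exchange factor of HSP70, rose in NF-YAs (36.0 ± 3.45 to 53.4 ± 4.07 CPM, 0.57, adjusted p = 0.00400). Its call was lost without Empty A, Empty C, NF-YAs B or NF-YAs C (log2 fold change 0.51 to 0.56, adjusted p = 0.0179 to 0.0265). In NF-YAl none of the 9 passed with edgeR or DESeq2, and 1 was lower at an unadjusted p under 0.05. Of 13 HSP90 and HSP70 co-chaperones, edgeR called 0 in any comparison, and DESeq2 called 1 that rose in NF-YAl, 2 that rose in NF-YAs and 0 between the isoforms. At an unadjusted p under 0.05 there were 1 higher and 0 lower in NF-YAl, 4 higher and 1 lower in NF-YAs, and 1 in each direction between the isoforms. Of the 4 other heat shock factors and regulators tested, edgeR called 0 in any comparison, DESeq2 called 1 that fell in NF-YAl, and 2 were lower in each line and 1 higher in NF-YAl than in NF-YAs at an unadjusted p under 0.05. HSF2, the other stress-related factor, was at 14.4 ± 0.826 CPM in Empty MTSs, 16.4 ± 1.42 in NF-YAl and 13.5 ± 0.326 in NF-YAs libraries.

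Of 6 other heat-inducible genes, ZFAND2A (AIRAP), a proteasome-associated protein, fell in NF-YAl (21.7 ± 2.09 to 12.5 ± 2.35 CPM, -0.80, adjusted p = 0.00278). The ZFAND2A call was lost without Empty B or Empty C (log2 fold change -0.80 to -0.72, adjusted p = 0.0111 to 0.0174). In NF-YAs edgeR called 0 of these 6, DESeq2 called 2 that fell, and 1 was higher and 2 lower at an unadjusted p under 0.05. NFYB and NFYC, the histone-fold partners of NF-YA, did not pass with edgeR in NF-YAl (0.62, adjusted p = 0.0155, and 0.43, adjusted p = 0.0120). In NF-YAs they did not pass either (0.21, adjusted p = 0.368, and 0.17, adjusted p = 0.266). Of the 3 NF-Y subunits, DESeq2 called 3 that rose in NF-YAl and 1 in NF-YAs. At an unadjusted p under 0.05 edgeR gave 3 higher in NF-YAl and 1 in NF-YAs.

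The genes with the most similar profiles were sought for HSPA1B and BAG3, as the root mean square (RMS) difference of centred log2 CPM over the 9 libraries, among tested genes of at least 5 CPM. For HSPA1B these were NFIL3 (RMS difference 0.0752), KDELR3 (0.107), MIR100HG (0.119), TUFT1 (0.124) and KIAA1024 (0.126). For BAG3 they were SNF8 (0.105), PRAC2 (0.107), PEG10 (0.122), TAOK3 (0.136) and H2AFY2 (0.137). HSF1 and the chaperone genes chosen by name at the start, HSPA1A included, were left out of this search. Their absence from these profiles is therefore not a result. None of the other chaperone, co-chaperone and heat-inducible genes was among the profiles named.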

How the data were processed

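RNA was extracted from pooled MTSs of each line in independent experiments and sequenced from TruSeq stranded total RNA libraries. For each library the authors ran RSEM 1.3.1, with Bowtie2 as aligner, on human transcripts of hg19 (GRCh37) and deposited expected counts, which are not normalized and in which reads aligning to several transcripts are shared out. The TPM deposited by the authors have an equal total per library, and the authors also deposited each transcript's percent of its gene's TPM.

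Expected counts of genes were turned into whole numbers for edgeR 4.0.16 under R 4.3.3 (filterByExpr, TMM, 3 groups in one quasi-likelihood fit, Benjamini-Hochberg). Alternatives used DESeq2 1.42.0, RLE scaling, other filters, 2-group fits, a replicate block, an effective length offset, leaving out each library, and limma 3.58.1 on log2(TPM + 1) or log2(TPM + 0.1). The fits were tested on simulated data. Groups and replicate letters came from the sample labels. Of 10 gene lists, up to 4 genes per comparison and direction were named at an adjusted p under 0.01, a mean of 5 CPM or more in whichever group was higher and the largest change, besides partners of the 10 genes, the NF-Y subunits and the 5 closest profiles. Members and lists were chosen with earlier results of these data known. Totals of 18076979 to 27163976 limit the precision of low genes such as HSPB8. One gene of the lists is not reported here by name.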

Additional observations from a re-analysis of the deposited data

Results flagged for a closer look

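The effects of the isoforms over Empty differed, in the test that set NF-YAl directly against NF-YAs (edgeR, adjusted p under 0.01), for 3 of the 10 genes and 5 of the other chaperone genes named. Over all genes tested, 4.70% were higher and 6.25% lower in NF-YAl than in NF-YAs, beside 2.47% and 3.70% of the 81 list genes. HSPA1A and HSPA1B share much of their sequence and are not independent measures. The log2 difference was 0.92 for HSPA1A, 0.85 for HSPA1B and 1.17 for HSPA6, each lower in NF-YAs. It was 1.35 for HSPA7, the pseudogene beside HSPA6. It was -0.98 for BAG3 and -3.56 for HSPB8, both higher in NF-YAs. It was -0.55 for HSPBP1, a difference lost without any 1 of 8 libraries, all but NF-YAl D (-0.63 to -0.43, adjusted p = 0.0117 to 0.0446). CCT6A differed by -0.64, lost without NF-YAl B or any 1 NF-YAs library (-0.67 to -0.60, adjusted p = 0.0127 to 0.0159). What sets these differences was not tested.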

How the results depend on the processing

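Of 570 comparisons of a gene's log2 fold change with an alternative setting, 500 kept direction and call, 26 lost the call, 12 gained it and 32 turned direction. Of the other list genes, only comparisons in which genes named by the rule had passed were covered, and every comparison of HSPE1, HSP90AB1, HSPA1L and HSF2. These gave 563 that kept both, 101 that lost the call and 18 that turned direction. As most had passed already, few could gain a call, and these counts cannot be set beside those of the 10 genes. BAG3 in NF-YAs passed under all 19 settings (1.02 to 1.25). HSPA6 and HSPA7 passed in NF-YAs under all 19 and HSPB8 under 18, since HSPB8 could not be fitted under the filter of 10 counts in every library. In NF-YAl against Empty, leaving out 1 library gave 0 to 1 genes that rose and 0 to 3 that fell. Over all genes tested, 17301 to 17460 in these fits, 1010 to 2146 rose and 999 to 2128 fell. The fit of 2 groups gave 0 that fell, TPM with either pseudocount 0, and the replicate block 3. Over all genes, 1049 of 16818 fell in the fit of 2 groups and 2156 of 17108 with the replicate block. On TPM 188 of 14960 fell with pseudocount 1 and 175 with pseudocount 0.1. In NF-YAs against Empty, leaving out 1 library gave 1 to 2 that rose, beside 1246 to 2663 of all genes tested. TPM gave 1 that rose and 0 that fell with either pseudocount, and rescaled TPM, an alternative chosen after seeing the data, gave 1 that rose. Over all genes, 550 of 14960 rose and 248 fell with pseudocount 1, and 573 and 244 with pseudocount 0.1. On rescaled TPM 1658 of 14951 genes rose. Between the isoforms TPM gave 0 in each direction, and DESeq2 and the replicate block 2 that were lower in NF-YAl, while leaving out 1 library gave 1 to 2. Over all genes TPM gave 157 higher and 186 lower with pseudocount 1, and 135 and 156 with pseudocount 0.1. Lower in NF-YAl were 1586 genes with DESeq2, 1613 with the replicate block and 518 to 1536 on leaving out 1 library. HSPA1B tested alone fell by 0.54 in NF-YAl where the sum of the HSPA1 genes did not pass. The median of all genes moved by 0.25 (NF-YAl), 0.15 (NF-YAs) and 0.11 (between the isoforms) on TPM + 1. The cause of these differences was not tested.

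The replicate letters did not meet the criterion for pairing, a correlation over 0.1 in every same-letter pair. These correlations (A, B, C) were 0.0771, -0.0128 and 0.0984 between NF-YAs and Empty, where NF-YAs B did not correlate best with its own letter. For A and B they were 0.123 and 0.253 between NF-YAl and Empty, each the best for its library, and -0.0652 and 0.130 between the isoforms. With the replicate block, in which NF-YAl D, alone in its letter, adds nothing to the differences, 4 more differences of the 10 genes passed: HSPA1A (-0.48, adjusted p = 0.00910) and DNAJB1 (-0.50, adjusted p = 0.00275) in NF-YAl, DNAJB1 in NF-YAs (-0.34, adjusted p = 0.00707) and HSP90AA1 between the isoforms (-0.56, adjusted p = 0.00467). Over all genes, 2156 fell in NF-YAl with the block and 1632 without it. In NF-YAs 2526 and 1802 fell, and between the isoforms 1613 and 1070 were lower.

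None of the differences that turned direction had passed the test. With TPM (pseudocounts 1 and 0.1) the turned log2 values were in NF-YAl HSP90AA1 0.047 and 0.047, HSPD1 0.15 and 0.15, HSPA1L 0.17 and 0.28, in NF-YAs HSPD1 0.039 and 0.039, HSP90AB1 0.0063 and 0.0063, HSF2 0.069 and 0.078, between the isoforms HSPA8 0.089 and 0.089, HSPH1 0.029 and 0.027, DNAJB1 0.12 and 0.12, HSPE1 0.053 and 0.052. With rescaled TPM they were between the isoforms DNAJB1 0.011, in NF-YAl HSPA1L 0.0078. Without a filter they were between the isoforms DNAJB1 0.0021, in NF-YAl HSPA1L 0.00091. With the length offset they were between the isoforms DNAJB1 0.0074. With the replicate block they were in NF-YAl HSPA8 -0.073, HSPE1 -0.22, between the isoforms HSPD1 -0.25. Leaving out 1 library spread them in NF-YAl HSPA8 -0.063 to 0.097, HSPD1 -0.32 to 0.038, HSPA1L -0.16 to 0.15, HSPE1 -0.19 to 0.21, in NF-YAs HSPA8 -0.0074 to 0.14, between the isoforms HSF1 -0.020 to 0.097, HSPA8 -0.13 to 0.034, HSPH1 -0.33 to 0.097, DNAJB1 -0.13 to 0.11, HSPD1 -0.19 to 0.17, HSPE1 -0.30 to 0.094.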

Other observations

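Transcript shares were compared for transcripts of at least 5% mean share in genes with more than 1 transcript. Of HSPH1 TPM, NM_006644.3 took 89.7 ± 0.646% in Empty MTSs, 92.9 ± 1.79% in NF-YAl and 94.8 ± 1.91% in NF-YAs, and NM_001286503.1 took 7.79 ± 0.437%, 4.61 ± 1.93% and 4.05 ± 0.976% (SD, n = 3). All isoform-line libraries lay to 1 side of Empty for both HSPH1 transcripts. Of DNAJB1 TPM, NM_001313964.1 took 3.87 ± 1.07% in Empty MTSs, 10.7 ± 5.51% in NF-YAl, where all 3 libraries lay above Empty, and 6.02 ± 6.38% in NF-YAs, and the main transcript NM_006145.2 took 86.7 ± 2.19%, 80.4 ± 6.80% and 88.1 ± 3.97%. The main HSP90AA1 transcript, NM_005348.3, took 99.1 ± 0.0862% in Empty MTSs and 98.3 ± 0.371% in NF-YAs, where all 3 libraries lay below Empty. With 3 libraries against 3, the exact two-sided permutation test cannot go below p = 0.1, and the smallest adjusted p over the 24 tests was 0.4.

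The tested genes around each heat shock gene, 50 on each side in the GRCh37 annotation where placed, gave median log2 fold changes in NF-YAs of -0.23 around HSPA1A (99 genes) and 0.07 around BAG3 (100 genes), beside -1.27 and 1.08 for the genes themselves. Around HSP90AA1 (90 genes) the median was 0.24 in NF-YAs and -0.29 between the isoforms, beside 0.18 and -0.42 for HSP90AA1. Around HSF1 (82 genes) it was 0.24 in NF-YAl, beside 0.21 for HSF1, and 0.08 in NF-YAs, beside 0.16. In NF-YAs the median had the opposite sign to the gene around HSPB1 (-0.14 beside 0.51), DNAJB1 (0.07 beside -0.35) and HSPH1 (0.10 beside -0.19). It had the same sign around HSPA1B (-0.23 beside -1.39), HSPA8 (0.03 beside 0.07) and HSPD1 (-0.05 beside -0.13). An effect of the region was not tested.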
